A study of Mus musculus with 2 samples.

Results

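The insulin-like growth factor (IGF) system was described here through 9 genes of the 31053 measured in both libraries: the ligands Igf1 and Igf2, the receptors Igf1r and Igf2r, the binding proteins Igfbp2, Igfbp3, Igfbp4 and Igfbp5, and the related gene Igfbpl1. The genes were given as a list of names and were read in every cell class of each library. Embryonic CD1 mice at day 18 (E18) gave the first library, from cortex together with the dorsal ventricular-subventricular zone (V-SVZ), the germinal layer that lines the lateral ventricle. Emx1Cre;R26Eyfpfl/fl pups at postnatal day 2 (P2) gave the other, from dorsal and lateral V-SVZ with the cortex taken off beforehand. In the P2 mice a Cre driven from the Emx1 locus switches on the reporter EYFP in descendants of the embryonic cortical primordium. Both suspensions were made with papain and sorted for cells that exclude propidium iodide and stain with DRAQ5. There was 1 library per age, so age, dissected tissue, mouse line and library cannot be told apart, and no P2 over E18 difference carries a test.

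IGF-1 and IGF-2 are secreted peptides that act through the tyrosine kinase receptor encoded by Igf1r and promote growth, survival and division of neural progenitors. The Igf2r product is a scavenger receptor that carries IGF-2 and mannose 6-phosphate tagged enzymes to lysosomes. Binding proteins hold the ligands in the extracellular space, and can lengthen their life, block receptor access or release them after cleavage by proteases. Igfbpl1 encodes a secreted protein related to these and known from the developing forebrain.

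The P2 cells were read more deeply than the E18 cells. After filtering, 2496 E18 cells with a median of 6574 UMIs (unique molecular identifiers, each 1 counted transcript) and 2296 P2 cells with a median of 12525 UMIs remained, and the libraries shared 0 barcodes. Cells were clustered in each library without the 9 genes and without the other genes of their pathway, and clusters were named from marker lists. E18 held 1836 excitatory neurons, 298 inhibitory neurons, 105 cycling cells, 98 excitatory intermediate progenitors, 93 radial precursors or neural stem cells, 50 oligodendrocyte precursors, 10 microglia, 5 mural cells and 1 endothelial cell. P2 held 1011 inhibitory neuroblasts or interneurons, 316 striatal projection neurons, 296 cycling cells, 216 excitatory neurons, 203 inhibitory-lineage intermediate progenitors, 96 stem cells, 81 oligodendrocyte precursors, 45 microglia and 32 ependymal cells. The term inhibitory neurons below stands for the inhibitory class, which at P2 includes neuroblasts. Of the ependymal cells, 19 were moved in from the stem class by their markers. A level below is the summed UMIs of a gene per 1000000 UMIs of the class (CPM), with an exact Poisson 95% interval that covers counting error only. Levels of different genes were not compared with each other.

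Igfbp2 and Igfbp5 are neighbours on mouse chromosome 1 and both had their highest E18 class level in stem cells, so their promoters are shown. In the GRCm38 annotation Igfbp2 runs from 72824503 to 72852474 on the plus strand and Igfbp5 from 72857932 to 72874884 on the minus strand, which leaves 5457 bases between their 3′ ends. The 250 bases before a RefSeq start (GRCm38.p6) are given 5′ to 3′ on each gene's own strand, with GC boxes (GGGCGG) and the E-box (CACGTG) in capitals. Igfbp2 lies at chr1:72824230-72824479, plus strand, and Igfbp5 at chr1:72874866-72875115, minus strand.
Igfbp2: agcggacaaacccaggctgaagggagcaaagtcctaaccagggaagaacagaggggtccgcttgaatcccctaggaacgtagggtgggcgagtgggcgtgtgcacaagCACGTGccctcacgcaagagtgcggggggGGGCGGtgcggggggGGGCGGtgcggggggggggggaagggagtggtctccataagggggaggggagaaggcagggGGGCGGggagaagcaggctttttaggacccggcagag
Igfbp5: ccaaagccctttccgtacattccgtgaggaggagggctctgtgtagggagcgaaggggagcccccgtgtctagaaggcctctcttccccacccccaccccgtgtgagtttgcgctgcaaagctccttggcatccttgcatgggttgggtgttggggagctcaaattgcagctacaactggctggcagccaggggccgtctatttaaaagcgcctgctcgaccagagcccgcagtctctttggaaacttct
Both strands were searched. The Igfbp2 window held 3 GC boxes and 1 E-box. RefSeq lists another Igfbp2 start, whose window (chr1:72825137-72825386, plus strand) held 0 matches to these motifs. The Igfbp5 window held 0 matches to either motif, and 0 to the TATA box (TATAAA) or to the CCAAT box (CCAAT). Of 32851 promoter windows of this length, 32.7% held the GC box, 6.02% the E-box, 12.4% the TATA box and 33.8% the CCAAT box. These matches describe letters in a window, and a motif not found says nothing about the factors that bind there. RefSeq entries matched 8 of the 9 genes.

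The other protein-coding genes of the set lie apart in GRCm38. Igf1 spans chromosome 10 from 87858265 to 87937042 (plus strand), and Igf1r chromosome 7 from 67952827 to 68233668 (plus strand). Igf2 lies on chromosome 7 from 142650766 to 142666816 (minus strand), and Igf2r on chromosome 17 from 12682406 to 12769664 (minus strand). Igfbp3 and Igfbp4 share chromosome 11, at 7206086 to 7213923 (minus strand) and 99041244 to 99054392 (plus strand), and Igfbpl1 is on chromosome 4 from 45809468 to 45826923 (minus strand). Igf1os, which overlaps Igf1 on the opposite strand, had 0 UMIs at E18 and 1 at P2.

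**Figure D1:**
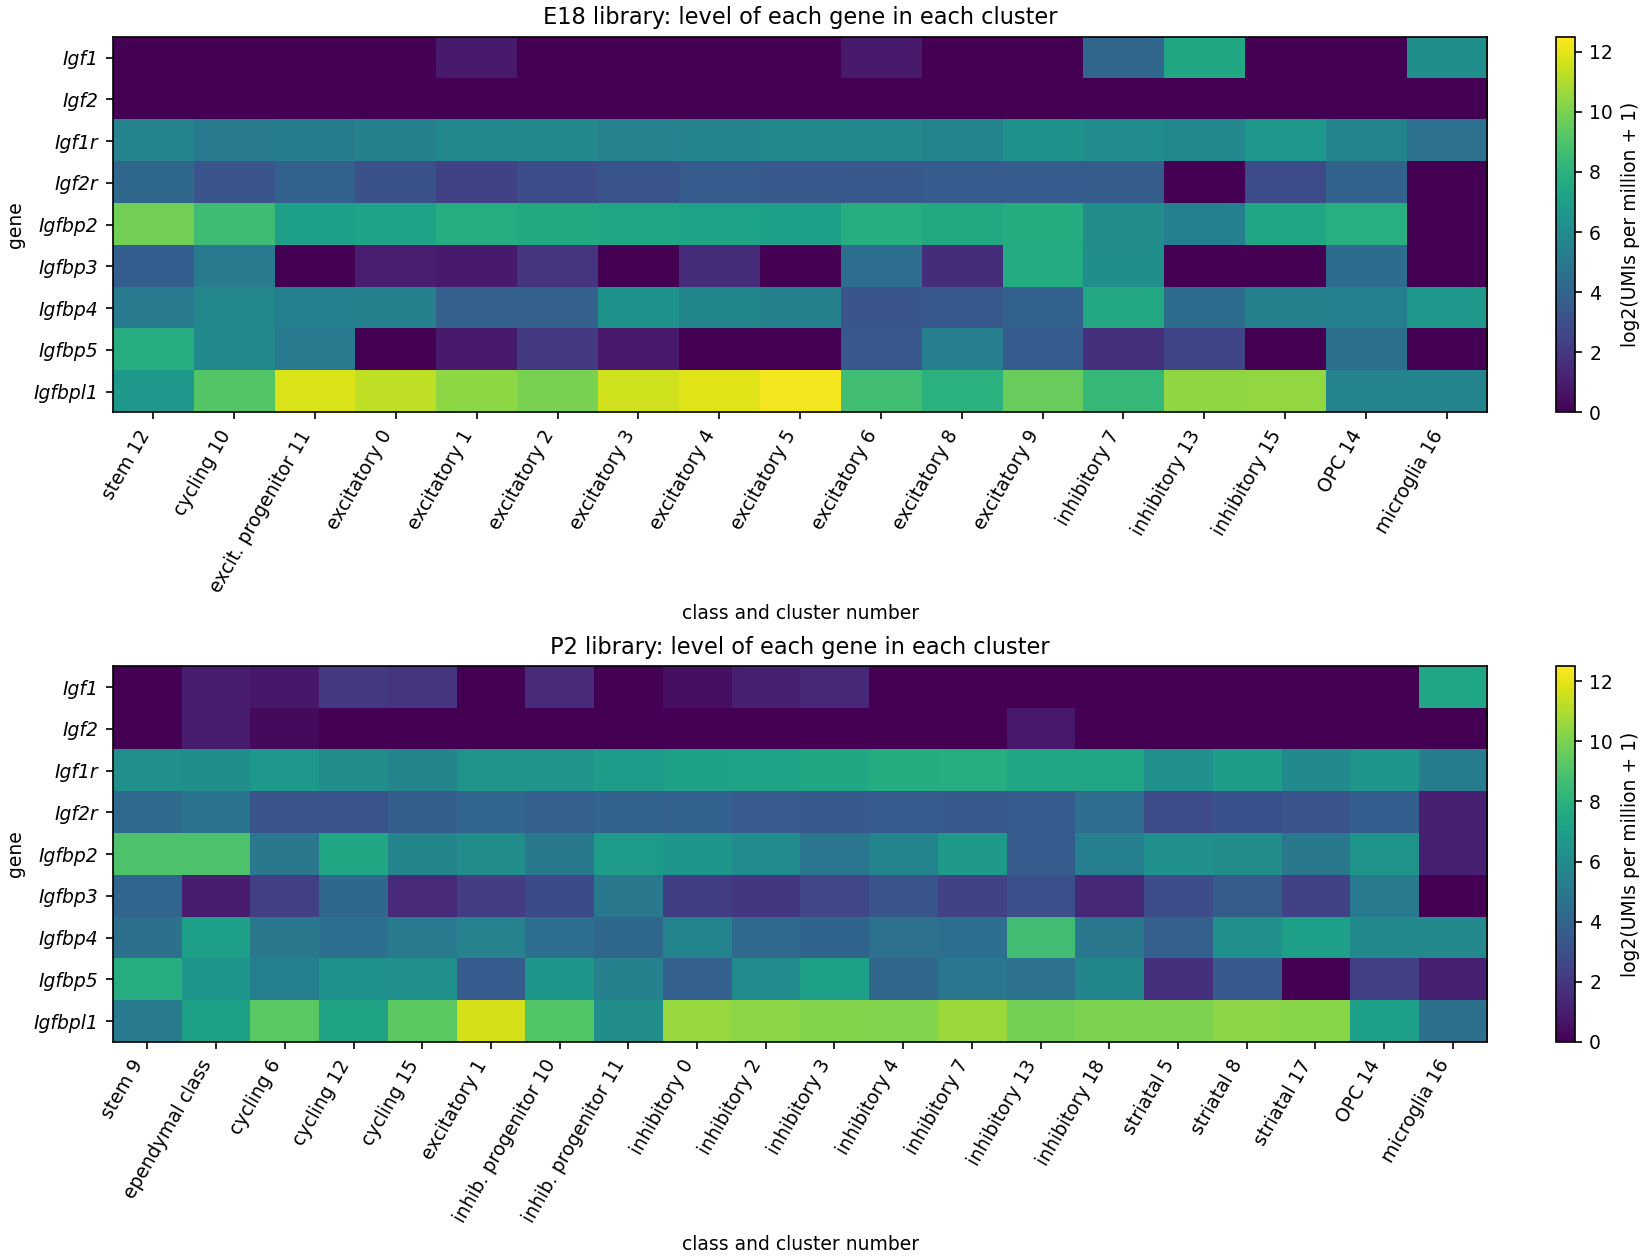
Level of the 9 genes in each cluster of 10 or more cells, E18 above and P2 below, on a log2(CPM + 1) colour scale; the P2 ependymal cells are shown as 1 class. Igf1 stands out in E18 inhibitory cluster 13 and in microglia, and Igfbp2 in E18 stem cells and in the P2 stem and ependymal classes. Igfbpl1 is highest in the excitatory lineage and is also high in P2 inhibitory and striatal cells.

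Between the ages, 3 classes and 4 pairs of clusters could be compared, and a gene was called at 2-fold or more among genes with 10 or more UMIs in both groups together. Excitatory neurons and cycling cells each held a cluster led by markers of another class, so for them clusters were paired. The Lhx6 and Nr2f2 clusters of the inhibitory class were paired as well. In stem cells, 0 of 7 measured members were called higher at P2, where 22.2% of all genes were, and 1 lower, where 6.47% of all genes were. Inhibitory neurons had 2 of 8 members higher (20.2% of all genes) and 2 lower (12.7% of all genes). Oligodendrocyte precursors had 1 of 7 higher (30% of all genes) and 2 lower (5.98% of all genes).

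The cluster pairs joined clusters of the same marker in the 2 libraries. The Lhx6 and Nr2f2 pairs are parts of the inhibitory class, so they share cells with it and are not separate comparisons. The Lhx6 pair (P2 cluster 13, 84 cells; E18 cluster 7, 168 cells) had 4 of 8 members higher, against 22.5% of all genes, and 3 lower, against 11.5%. The Nr2f2 pair (P2 cluster 3, 176 cells; E18 cluster 13, 89 cells) had 2 of 7 higher, against 18.6%, and 1 lower, against 12%. The cycling pair with the highest Mki67 (147 and 105 cells) had 1 of 7 higher, against 17.8%, and 2 lower, against 14%. In the pair of newborn excitatory neurons with the highest Neurod1 (216 and 180 cells), 1 of 7 was higher, against 19.9%, and 0 lower, against 5.62%. The Lhx6 pair, with 7 of 8 members called, had the highest count of the 7 comparisons. With clusters cut at resolution 2, 3 were called, and the share of all genes at that resolution is not given. Across the comparisons the median log2 ratio of all genes lay between 0.05 and 0.42. P2 cells were deeper in each comparison, and the part of depth and of the dissected tissue in the ratios was not tested.

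**Figure D2:**
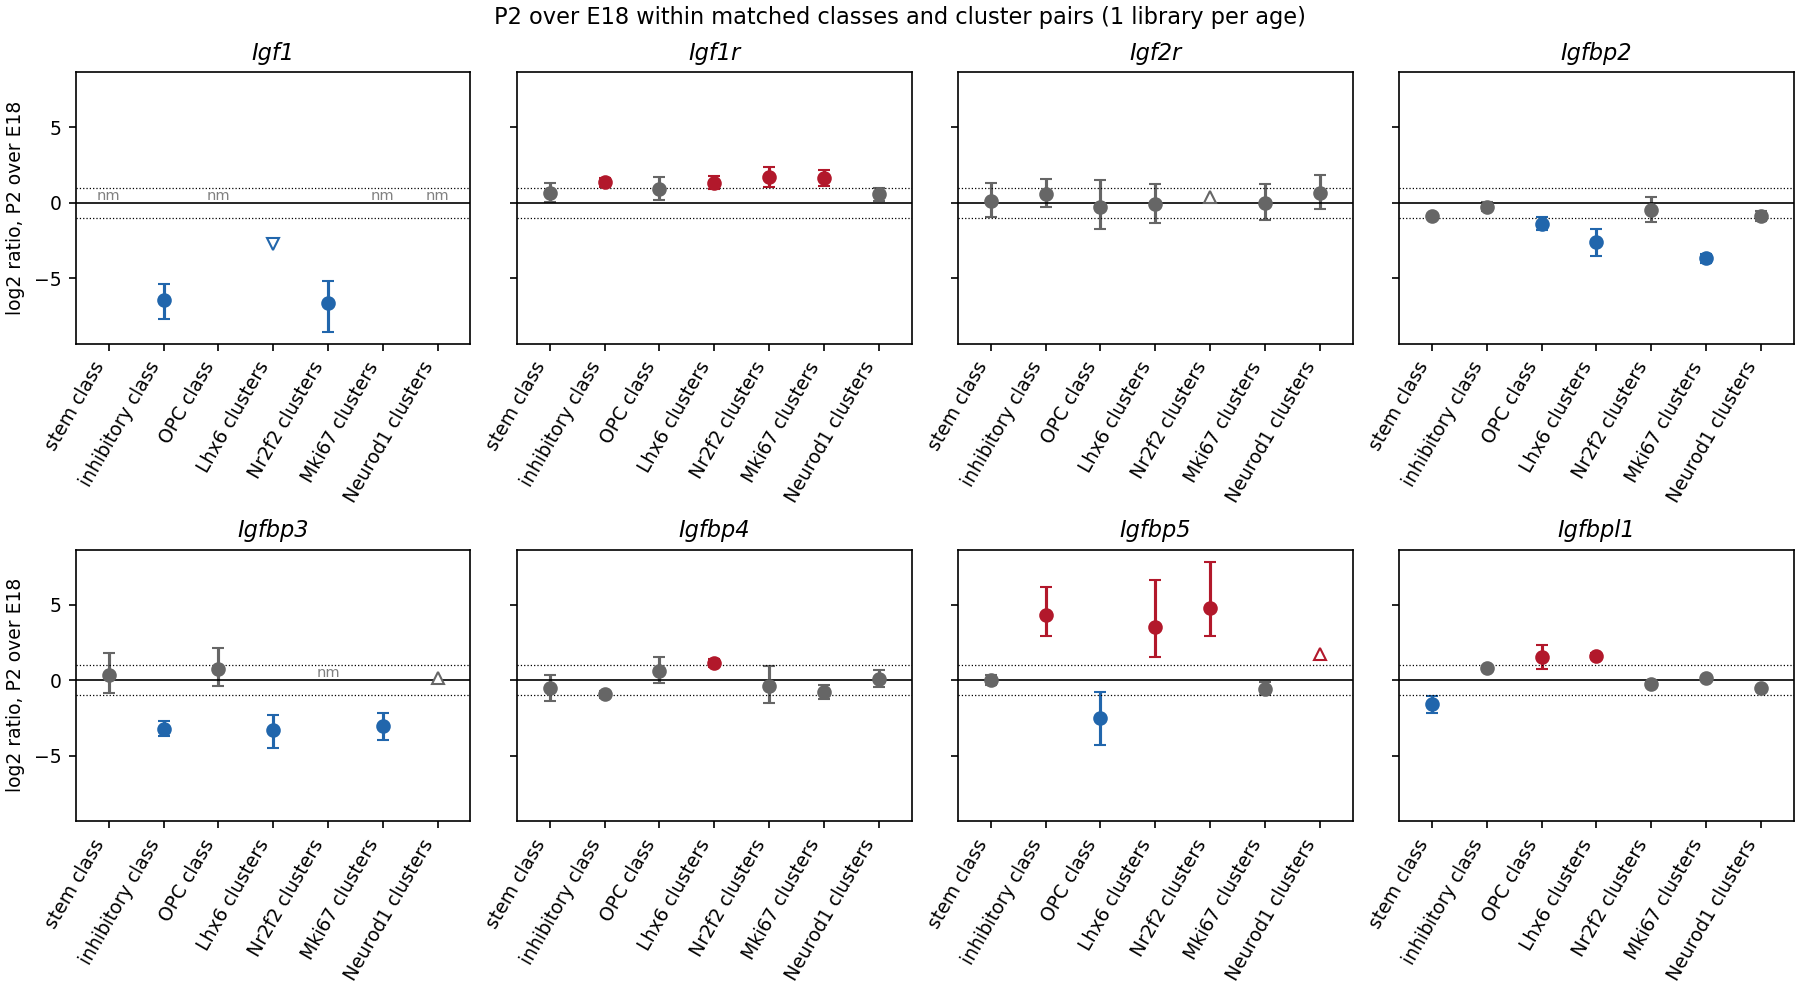
Log2 ratio of P2 over E18 for 8 genes in the 7 comparisons, with exact conditional 95% intervals for counting error; dotted lines mark 2-fold, red is higher and blue lower at P2, open triangles have 0 UMIs on one side and are set at the floor of 3 UMIs, and nm is not measured. The points of Igf1r lie above 0 and those of Igfbp2 below 0 in all 7 comparisons, with 2 Igfbp2 intervals that include 0, whereas Igfbp5 lies on both sides. The Lhx6 and Nr2f2 pairs are parts of the inhibitory class.

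Igf1, the ligand made in brain by some neurons and by microglia, was found in few classes. In E18 cluster 13, interneurons led by Adarb2, Cxcl14 and Nr2f2, Igf1 stood at 171 CPM (132 to 217), with a UMI in 30 of 89 cells and at most 8 UMIs in a cell. E18 cluster 7, the Sst and Lhx6 interneurons, stood at 16.4 (9.20 to 27.1), from 15 UMIs in 168 cells. The third E18 inhibitory cluster, led by Pbx3, had 0 Igf1 UMIs, so Igf1 differed within the class well beyond counting error. Inhibitory neurons held 82 of the 92 Igf1 UMIs of the E18 cells, and 0 were found in stem cells, cycling cells, intermediate progenitors or oligodendrocyte precursors.

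At P2 the Igf1 level of the inhibitory class was far lower. That class holds neuroblasts as well as interneurons at P2, and the part of its make-up in the ratio was not tested. The whole inhibitory class had 82 Igf1 UMIs in 298 cells at E18 and 8 in 1011 cells at P2, levels of 56.0 (44.5 to 69.5) and 0.663 (0.286 to 1.31) and a log2 ratio of -6.40 (-7.66 to -5.35). The P2 Nr2f2 cluster had 4 Igf1 UMIs in 176 cells, a level of 1.76 (0.479 to 4.50), and a log2 ratio to its E18 partner of -6.60 (-8.52 to -5.18). The P2 Lhx6 cluster had 0 UMIs, 6.64-fold lower than its E18 partner when the 0 is set to a floor of 3 UMIs. The upper bound of that log2 ratio was -2.25. With every cell thinned to 3000 UMIs, Igf1 was found in 30.1% of the cells of E18 cluster 13, with an exact 95% interval of 19.9 to 42.0%. In the P2 Nr2f2 cluster, thinned alike, the share was 1.16%, with an interval of 0.140 to 4.11%.

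Microglia were the P2 class with Igf1. Their level was 157 (133 to 184) at P2, from 150 UMIs of which 41 were in 1 cell, and 18 of 45 cells had a UMI. At E18 the 10 microglia stood at 74.5 (27.3 to 162). These intervals overlapped. The other 8 P2 classes lay between 0 and 1.89.

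Igf2, the imprinted fetal ligand known from meninges, choroid plexus and vessels, was near absent. It had 1 UMI at E18, in 1 of 5 mural cells, and 3 UMIs at P2, 1 each in a cycling, an ependymal and an inhibitory cell. No fold was taken from such counts. Vessel cells were rare, with 5 mural and 1 endothelial cell at E18 and none named at P2.

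Igf1r, the signalling receptor, had UMIs in every class of 10 or more cells. At E18 its level ran from 24.8 (3.01 to 89.6) in microglia and 32.8 (22.6 to 46.0) in cycling cells to 66.9 (54.3 to 81.5) in inhibitory neurons, and each such class overlapped its neighbour in the order. At P2 it ran from 41.9 (29.9 to 57.1) in microglia to 171 (164 to 179) in inhibitory neurons. The P2 inhibitory level stood above that of the next class, striatal neurons at 97.6 (88.1 to 108). Among P2 clusters, the highest were the Synpr and Prokr2 neuroblasts of cluster 7 at 223 (198 to 250) and the Vax1 neuroblasts of cluster 4 at 209.7 (188 to 234).

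Igf1r was higher at P2 in all 7 comparisons, of which the Lhx6 and Nr2f2 pairs share cells with the inhibitory class. In the inhibitory class the log2 ratio was 1.36 (1.07 to 1.67), in the Nr2f2 pair 1.69 (1.07 to 2.38), in the cycling pair 1.61 (1.10 to 2.17) and in the Lhx6 pair 1.33 (0.91 to 1.78). It was 0.67 (0.06 to 1.33) in stem cells, 0.91 (0.18 to 1.73) in oligodendrocyte precursors and 0.56 (0.12 to 1.02) in newborn excitatory neurons. All 7 values exceeded the median of all genes in their comparison, and 4 passed 2-fold. The share of inhibitory cells with an Igf1r UMI was 26.5% at E18 and 75.2% at P2, with thinned intervals of 14.4 to 24.3% and 34.3 to 40.5%. The lowest shares among classes of 50 or more cells, which bound the background from free RNA, were 20.4% in E18 excitatory intermediate progenitors and 59.3% in P2 excitatory neurons. Their median depths were 5852 and 12250.5 UMIs, beside 4704.5 and 9550 in the inhibitory classes.

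Igf2r, the scavenger receptor, had levels in classes of 10 or more cells from 0 in microglia to 17.8 in stem cells at E18. At P2 ependymal cells were highest at 26.7 (17.7 to 38.5), with 7 of their 28 UMIs in 1 cell. Striatal neurons at 7.01 (4.66 to 10.1) and microglia at 2.10 (0.254 to 7.57) lay below them beyond counting error. Its log2 ratio lay between -0.24 and 0.65 in the 7 comparisons, within 2-fold in each, although the Nr2f2 value is set against 0 UMIs at E18. The antisense gene Airn, on the opposite strand, had 17 UMIs at E18 and 52 at P2.

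Igfbp2, a binding protein of fetal neuroepithelium and glia, was highest in stem cells in the E18 library. E18 stem cells stood at 929.7 (852 to 1013), with a UMI in 87 of 93 cells. Cycling cells stood at 389 (352 to 430.0), oligodendrocyte precursors at 226 (179 to 283) and excitatory neurons at 188 (181 to 195). Inhibitory neurons had the lowest level of the larger E18 classes, 71.7 (58.6 to 86.8), and the 10 microglia had 0 UMIs. The first gaps in this order exceeded counting error, while oligodendrocyte precursors and excitatory neurons overlapped.

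At P2 Igfbp2 was high in 2 classes. Stem cells stood at 510.2 (476 to 546) and ependymal cells at 507 (465 to 552), and their intervals overlapped. The ependymal level is an average over 32 cells, 19 of them moved in from the stem class. The next class, oligodendrocyte precursors, stood at 86.7 (72.3 to 103). The 8 cells left in the compact ependymal cluster, led by Rsph1 and Meig1, stood at 985 (894 to 1084), with 107 of 423 UMIs in 1 cell. In P2 microglia 35 of the 36 Igfbp2 UMIs came from 1 cell, and the other 44 cells held 1 UMI.

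The Igfbp2 ratio was below 0 in all 7 comparisons, and in 5 of them its interval excluded 0. The Lhx6 and Nr2f2 pairs again share cells with the inhibitory class. The log2 ratio was -3.67 (-3.97 to -3.38) in the cycling pair, where the levels were 30.6 and 389, and -2.56 (-3.51 to -1.70) in the Lhx6 pair, where they were 11.6 and 67.9. It was -1.39 (-1.80 to -0.96) in oligodendrocyte precursors, and -0.75 there with a mitochondrial limit of 5%. It stayed within 2-fold in the stem class at -0.87 (-1.03 to -0.70) and in the newborn excitatory pair at -0.88 (-1.22 to -0.53). In the Nr2f2 pair at -0.47 (-1.27 to 0.42) and the inhibitory class at -0.25 (-0.55 to 0.06) the interval included 0. The P2 cycling clusters differed among themselves: cluster 12, led by Egfr, stood at 175 (160 to 191), and cluster 6, used in the pair, at 30.6 (25.4 to 36.4).

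The P2 stem class held cells that separated at a finer clustering, and several members divided with them. At Leiden resolution 2, 38 of its 96 cells joined 12 cycling cells in a cluster named maturing astrocyte, led by Slc6a11, Id3, Aldh1l1 and Aqp4, and 58 cells stayed in the stem class. Markers of astrocytes did not all go with that name. Aqp4 was 260 (230 to 292) in the astrocytes and 172 (147 to 200) in the stem cells, but Gfap was 36.2 (25.6 to 49.6) and 96.6 (78.2 to 118), Slc1a2 736 (685 to 789) and 1018 (956 to 1083), and Sparcl1 1235 (1169 to 1304) and 1496 (1421 to 1575). The division marker Mki67 had UMIs in 16 of the 50 astrocytes and 2 of the 58 stem cells, and its part in the split was not tested. Igfbp2 stood at 944 (886 to 1005) in the astrocytes, with a UMI in 48 of 50 cells, and at 141 (119 to 167) in the stem cells, with a UMI in 37 of 58. Igfbp5 went the other way, at 39.0 (28.0 to 52.9) in the astrocytes and 333 (298 to 371) in the stem cells. Igfbp3 stood at 44.7 (32.9 to 59.5) in the astrocytes and 6.10 (2.24 to 13.3) in the stem cells.

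The log2 ratios of astrocytes over stem cells at P2 were 2.74 (2.48 to 3.01) for Igfbp2, 2.87 (1.64 to 4.39) for Igfbp3 and -3.09 (-3.60 to -2.62) for Igfbp5. Igf2r, with 9 and 24 UMIs, was also past 2-fold at -1.51 (-2.80 to -0.36), and Igf1r was -0.97 (-1.48 to -0.46). In all, 2 of 7 measured members were higher in astrocytes, against 9.61% of all genes, and 2 lower, against 9.54%. The 58 stem cells came from cluster 21 (40 cells, led by Aldoc, Pla2g7 and Hopx) and cluster 23 (18 cells left after those with ependymal markers were moved, led by Crym and Clu). EYFP UMIs were found in 37 of the 40 cells and in 1 of the 18. Igfbp2 was 150.4 (124 to 181) and 115 (77.2 to 166) in these clusters, and Igfbp5 385 (342 to 433) and 179 (131 to 239). Cluster 23 had 2 markers of the astrocyte list and 0 of its own among its top 10 genes, so the name stem cell rests on cluster 21.

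**Figure D3:**
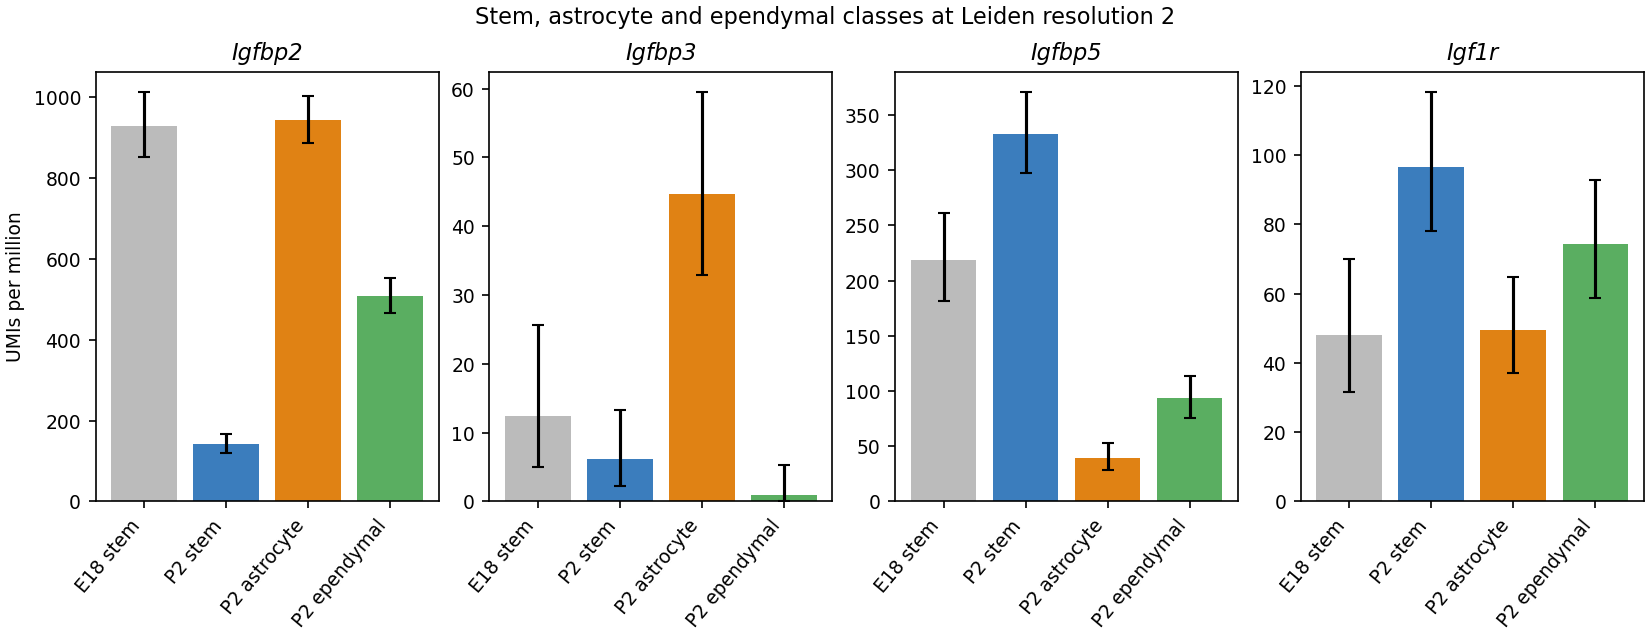
Levels of Igfbp2, Igfbp3, Igfbp5 and Igf1r in E18 stem cells and in P2 stem cells, maturing astrocytes and ependymal cells at Leiden resolution 2, in CPM with Poisson 95% intervals. Igfbp2 is 944 in the P2 astrocytes and 141 in the P2 stem cells, and Igfbp5 is 39.0 and 333.

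The P2 over E18 ratio of Igfbp2 in stem cells therefore moved with the clustering. With astrocytes set apart it was -2.72, with 141 set against 929.7. With astrocytes pooled back at that resolution, a choice made after the data were seen, it was -0.74. At resolution 0.5, where the E18 stem cluster grew to 248 cells, it was 0.10.

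Igfbp5, a binding protein that attaches to extracellular matrix, was highest in the stem class in both libraries. Igfbp2 shared that class as its highest at E18, while at P2 its stem and ependymal levels overlapped. E18 stem cells stood at 219 (182 to 261), with a UMI in 52 of 93 cells, above cycling cells at 62.6 (48.1 to 80.1). P2 stem cells stood at 219 (197 to 243), and the log2 ratio in the stem class was 0.01 (-0.29 to 0.31). With astrocytes set apart at resolution 2 it was 0.61 (0.30 to 0.92), from 333 and 219, and at resolution 0.5 it was 0.84. Of the E18 stem cells, 50 held both Igfbp2 and Igfbp5 UMIs, 37 Igfbp2 alone, 2 Igfbp5 alone and 4 neither. Of the 96 P2 stem cells, 52 held both, 22 Igfbp2 alone, 14 Igfbp5 alone and 8 neither. These 96 cells include the 38 that were named maturing astrocytes at resolution 2.

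Igfbp5 differed most between the libraries in the inhibitory lineage. Inhibitory neurons had 4 UMIs in 298 cells at E18, a level of 2.73 (0.744 to 6.99), and 646 UMIs in 1011 cells at P2, a level of 53.5 (49.5 to 57.8), a log2 ratio of 4.29 (2.93 to 6.17). The thinned share of cells with an Igfbp5 UMI was 0.775% at E18, with an interval of 0.094 to 2.77%, and 8.75% at P2, with an interval of 7.05 to 10.7%. Without thinning the P2 inhibitory share was 18.1% at a median depth of 9550 UMIs. The lowest share among P2 classes of 50 or more cells, the background from free RNA at most, was 4.17% in excitatory neurons at 12250.5 UMIs.

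The P2 inhibitory clusters were unequal in Igfbp5. The Nr2f2 and Adarb2 cluster stood at 139 (124 to 156) with a UMI in 78 of 176 cells, cluster 2 at 65.4 (56.0 to 76.0) and the Foxp2 cluster 0 at 13.3 (9.16 to 18.7). The Nr2f2 cluster shared 3 of its 10 leading genes, Nr2f2, Adarb2 and Prox1, with E18 cluster 13, which held 2 Igfbp5 UMIs in 89 cells, and the ratio was 4.77 (2.91 to 7.83). In the Lhx6 pair it was 3.50 (1.52 to 6.61), but 17 of the 30 P2 UMIs came from 1 cell. In newborn excitatory neurons P2 held 30 UMIs, 15 of them in 1 cell, and E18 held 0.

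Oligodendrocyte precursors were the comparison with Igfbp5 past 2-fold lower at P2. They had 8 UMIs at E18 and 6 at P2, levels of 23.2 and 4.10, a log2 ratio of -2.50 (-4.31 to -0.79), which was -0.86 with a mitochondrial limit of 5%. Among E18 excitatory neurons, the Rorb and Inhba cluster 8 stood at 40.0 (30.2 to 52.0), with UMIs in 18 of 138 cells, while cluster 0 and the newborn clusters 4 and 5 had 0 UMIs. Rorb marks layer 4 of the cortex.

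Igfbp3, the main carrier of IGFs in blood, had UMIs in 11 of 17 E18 clusters and 18 of 19 P2 clusters of 10 or more cells, and its highest levels lay in a few of them. E18 excitatory cluster 9, led by Hs3st4, Tle4, Crym and Syt6, which are layer 6 markers, stood at 203 (177 to 232), with a UMI in 91 of 136 cells. The next excitatory cluster, the Fezf2 cluster 6, stood at 21.8 (16.2 to 28.6), and the remaining 7 lay between 0 and 2.87. Cluster 9 held 216 of the 282 Igfbp3 UMIs of excitatory neurons. E18 Lhx6 interneurons stood at 73.4 (56.9 to 93.2), with UMIs in 29 of 168 cells, and the other inhibitory clusters had 0 UMIs.

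At P2 the Lhx6 cluster had 9 Igfbp3 UMIs in 84 cells, a level of 7.43 (3.40 to 14.1) and a log2 ratio of -3.31 (-4.50 to -2.30). With clusters from resolution 2 the Igfbp3 ratio of the Lhx6 pair was -0.63. Over the inhibitory class the ratio was -3.20 (-3.73 to -2.68), from 4.97 and 45.7. The cycling pair had a ratio of -3.06 (-3.99 to -2.19), from levels of 4.16 and 34.8. In oligodendrocyte precursors Igfbp3 was 34.1 (25.3 to 45.0) at P2 and 20.3 (8.17 to 41.9) at E18, which overlap. These P2 cells, 29 of 81 with a UMI, had the highest Igfbp3 level of the classes at resolution 1, while the astrocytes of resolution 2 stood at 44.7.

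Igfbp4, a binding protein that mostly inhibits IGF action until it is cleaved, was highest in Lhx6 interneurons at both ages. The E18 Lhx6 cluster stood at 185 (158 to 215), with a UMI in 77 of 168 cells, and the P2 Lhx6 cluster at 408 (373 to 446), with a UMI in 70 of 84. The log2 ratio was 1.14 (0.89 to 1.40), and 0.87 when every cell weighed alike, with 62 of the 495 P2 UMIs in 1 cell. With clusters from resolution 2 it was 0.61. The E18 Nr2f2 cluster stood at 20.4 (8.80 to 40.1) and its P2 partner at 15.4 (10.7 to 21.4). Both Lhx6 clusters thus lay above the Nr2f2 cluster of their own library beyond counting error.

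Igfbp4 had UMIs in every class of 10 or more cells. P2 ependymal cells stood at 131 (110.4 to 155), and E18 excitatory cluster 3, led by Calb2 and Sema3c, at 81.0 (65.7 to 98.9). E18 microglia stood at 99.3 (42.9 to 196), from 8 UMIs. P2 oligodendrocyte precursors stood at 62.8 (50.6 to 77.0) and P2 microglia at 59.7 (45.2 to 77.4). The E18 clusters of the deep and upper layers named by Fezf2, Rorb, Tle4, Ntf3 and Cux1 lay between 8.96 and 14.1. Over the whole inhibitory class the ratio was -0.95 (-1.18 to -0.71), opposite in sign to the Lhx6 pair. The Lhx6 clusters were 168 of 298 inhibitory cells at E18 and 84 of 1011 at P2.

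Igfbpl1 was highest in newborn neurons. In the E18 excitatory lineage it stood at 101 (76.7 to 131) in stem cells, 568 (523 to 617) in cycling cells and 3514 (3363 to 3671) in Eomes-led intermediate progenitors. It was highest in cluster 5, the newborn neurons led by Rnd2, Sstr2 and Neurod1, at 4931 (4785 to 5080), with a UMI in 180 of 180 cells. The Sema3c and Unc5d cluster 4 stood at 3742 (3621 to 3867), cluster 3 at 3129.8 (3030.3 to 3232) and cluster 0 at 2496 (2425 to 2569).

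Clusters with markers of mature layers were lower in Igfbpl1. The Fam19a2 and Cux1 cluster stood at 1338 (1292 to 1386), the Ntf3 cluster at 1028 (985 to 1072) and the Tle4 cluster at 775 (723 to 830.1). The Fezf2 cluster stood at 404 (379 to 431) and the Rorb cluster at 255 (229 to 283). The highest of the 9 excitatory clusters was 19.3-fold above the lowest, and each cluster in this order differed from the next beyond counting error. Median depth was higher in the clusters with mature layer markers, at 12715 UMIs per cell in the Fezf2 cluster beside 4960.5 in cluster 5, and its part in the levels was not tested.

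**Figure D4:**
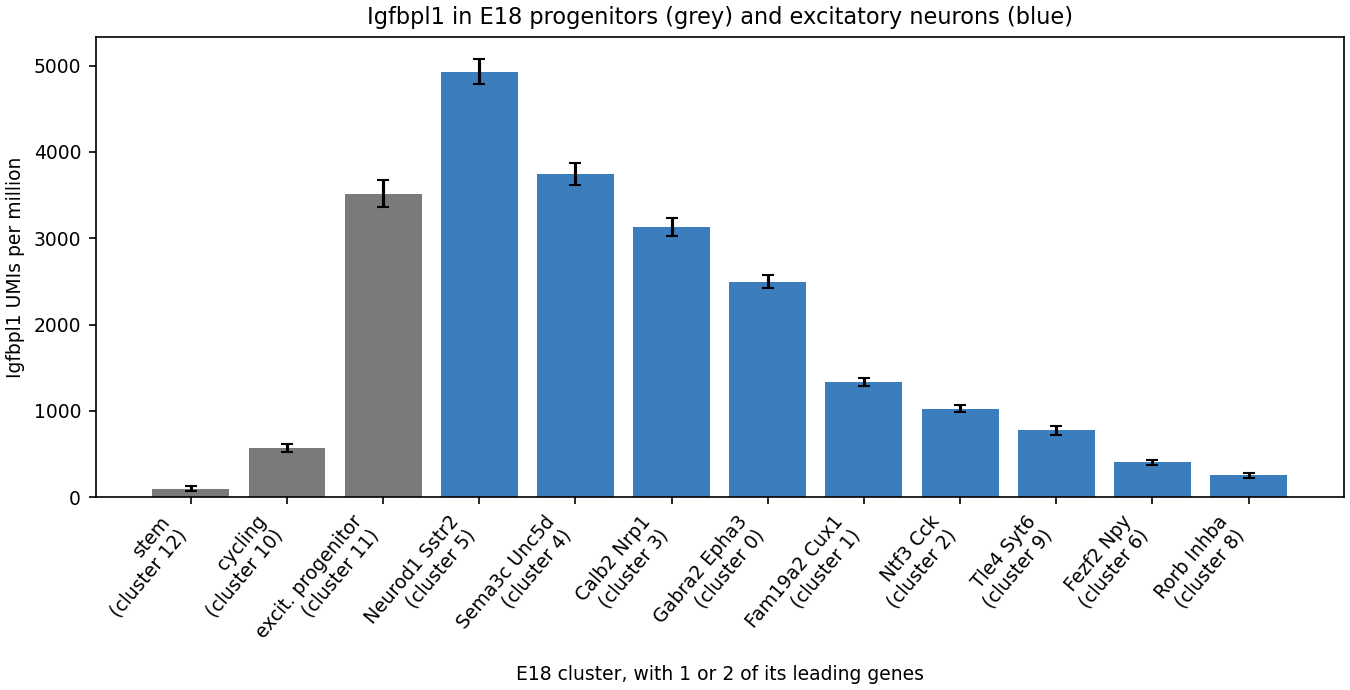
Igfbpl1 level in CPM, with Poisson 95% intervals, in 3 E18 progenitor clusters (grey) and 9 excitatory neuron clusters (blue), each labelled by its leading genes. The level is 101 in stem cells, peaks at 4931 in the Neurod1 cluster and is 255 in the Rorb cluster.

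In the P2 library Igfbpl1 was again highest in excitatory neurons, at 3358 (3288 to 3429), followed by inhibitory neuroblasts at 1276 (1256 to 1297) and striatal neurons at 1149 (1116 to 1183). The 7 P2 inhibitory clusters lay between 959 and 1581, a narrower range than the E18 inhibitory clusters. There the Lhx6 cluster stood at 316 (280.2 to 354), and the Nr2f2 and Pbx3 clusters at 1383 (1269 to 1504) and 1410.0 (1232 to 1607). In the P2 progenitors it was 559 (532 to 587) in cluster 10, led by Mcm3 and Mcm2, but 72.4 (58.8 to 88.3) in the Olig1 and Egfr cluster 11.

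Between the ages, Igfbpl1 was higher at P2 in the Lhx6 pair, with a log2 ratio of 1.60 (1.42 to 1.79), and 1.37 when every cell weighed alike. It was 0.82 (0.73 to 0.92) in the inhibitory class and -0.55 (-0.61 to -0.50) in newborn excitatory neurons. In stem cells it was -1.58 (-2.14 to -1.02), from levels of 33.8 at P2 and 101 at E18, but 0.46 with a mitochondrial limit of 5% and 0.41 with doublets kept. In oligodendrocyte precursors it was 1.50 (0.77 to 2.34), with 63 of the 193 P2 UMIs in 1 cell, and 0.73 when every cell weighed alike. Stem cells and oligodendrocyte precursors also had the lowest shares of cells with an Igfbpl1 UMI among classes of 50 or more cells, 35.4% at P2 and 26.0% at E18, and the part of free RNA in these levels was not tested.

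In the P2 library the cells with and without EYFP were compared within 7 classes, which sets cortical lineage against the rest inside 1 library. A cell without an EYFP UMI can be an EYFP cell whose reporter was missed. The median depth was higher with EYFP in each class. It was 13205 UMIs with and 4745 without EYFP in excitatory neurons, and 19036 and 15074 in stem cells. The part of depth in the EYFP ratios was not tested. In stem cells (55 with, 41 without) 1 of 7 measured members was higher with EYFP, where 6.46% of all genes were, and 1 lower, where 6.08% were. Igfbp5 was the higher one, at 276 with EYFP and 114 without, a log2 ratio of 1.28 (0.88 to 1.69), and Igfbp3 the lower one, with 10 and 16 UMIs (-1.57, -2.87 to -0.34). Igfbp2 was 421 with EYFP and 676 without, within 2-fold at -0.68 (-0.88 to -0.48).

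At resolution 2 the split of EYFP followed the cell classes in part, with EYFP in 38 of 58 stem cells and 20 of 50 astrocytes. The stem cells with and without EYFP were largely different clusters: EYFP was found in 37 of the 40 cells of cluster 21 and in 1 of the 18 of cluster 23. Cluster and EYFP therefore cannot be told apart there. In these stem cells Igfbp5 was 374 (331 to 421) with EYFP and 215 (162 to 280.3) without, and inside the astrocytes 63.0 (42.8 to 89.4) and 17.9 (8.58 to 32.9). Igfbp2 in the stem cells was 158 (130.5 to 190) with EYFP and 94.0 (60.2 to 140) without, and these intervals overlapped. Inside the astrocytes it was 839 (760.0 to 924) with EYFP and 1036 (954 to 1124) without.

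In the inhibitory class (290 with, 721 without) 0 of 7 members were higher with EYFP, where 2.36% of all genes were, and 1 lower, where 3.75% were. That was Igfbp4, at 31.2 with EYFP and 85.8 without, a ratio of -1.46 (-1.73 to -1.19). The Lhx6 cluster, 84 of the 1011 cells, held 495 of the 785 Igfbp4 UMIs of the class. How its cells fall between the EYFP sides, and their part in the ratio, was not tested. Striatal neurons (43 and 273) had 1 of 7 higher, against 3.39% of all genes, and 0 lower, against 6.97%: Igfbp5, from 10 and 12 UMIs, at 1.90 (0.53 to 3.23). Inhibitory-lineage progenitors (91 and 112) had 0 of 7 higher, against 3.89%, and 1 lower, against 2.85%: Igfbp3, from 19 and 40 UMIs, at -1.20 (-2.07 to -0.37).

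The remaining classes held calls from few UMIs. Cycling cells (128 and 168) had 1 of 8 members higher, against 2.85% of all genes, and 0 lower, against 3.13%: Igf1, with 10 and 5 UMIs, whose interval (-0.55 to 3.03) includes 0. Excitatory neurons (177 and 39) had 1 of 6 higher, against 7.12%, and 0 lower, against 6.64%: Igfbp5, with 29 and 1 UMIs, at 1.45 (-1.15 to 6.80). Oligodendrocyte precursors (46 and 35) had 0 of 6 higher, against 3.26%, and 0 lower, against 5.84%. Igf1r stayed within 2-fold in all 7 classes, at -0.29 to 0.27.

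**Figure D5:**
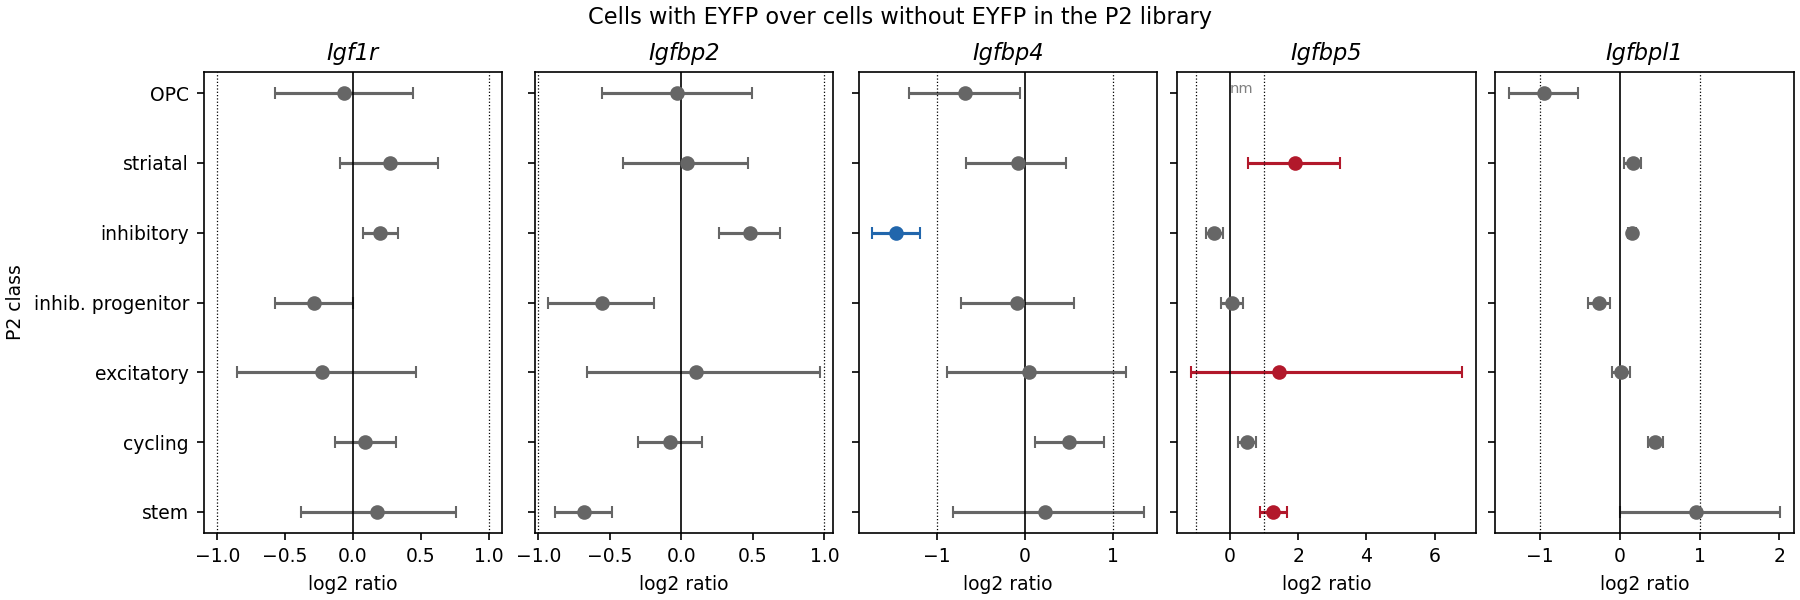
Log2 ratio of P2 cells with EYFP over cells without it for 5 genes in 7 classes, with exact conditional 95% intervals; dotted lines mark 2-fold, red is higher and blue lower with EYFP, and nm is not measured. Igfbp5 is 1.28 in stem cells and Igfbp4 is -1.46 in inhibitory cells, while Igf1r lies within 2-fold in every class. The Lhx6 cluster held 495 of the 785 Igfbp4 UMIs of the inhibitory cells.

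The other genes of the pathway were read from 5 fixed lists with 66 genes in all. In stem cells 15 of 54 measured genes (27.8%) were higher at P2, where 22.2% of all genes were, and 6 (11.1%) lower, where 6.47% were. Their median log2 ratio was 0.31, beside 0.24 for all genes. Inhibitory neurons had 17 of 55 (30.9%) higher, against 20.2%, and 6 (10.9%) lower, against 12.7%, with a median of 0.55 beside 0.13 for all genes. Oligodendrocyte precursors had 17 of 51 (33.3%) higher, against 30%, and 5 (9.80%) lower, against 5.98%, with a median of 0.82 beside 0.42. The arm of adaptors, PI3-kinase, AKT and mTOR had 11 of 31 (35.5%) higher and 4 lower in stem cells, 11 of 30 (36.7%) and 0 in inhibitory neurons, and 11 of 30 and 3 in oligodendrocyte precursors. The Ras-MAPK arm had 1 of 9 (11.1%) higher in each class, and 1 lower in inhibitory neurons.

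Named genes of these lists were chosen by the bound of their interval nearest 0. Rictor, a subunit of mTOR complex 2, had a log2 ratio of 2.09 (1.16 to 3.18) in stem cells and 2.09 (1.54 to 2.70) in inhibitory neurons. Pik3r1, a regulatory subunit of PI3-kinase, was 2.11 (1.13 to 3.27) in stem cells. Pik3r3, another regulatory subunit, had 78 and 1 UMIs in oligodendrocyte precursors, a ratio of 4.20 (1.68 to 9.52). Foxo6, a forkhead factor that AKT inactivates, was 2.06 (1.40 to 2.80) in inhibitory neurons.

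Genes of the mRNA-binding and imprinted list moved in both directions. H19, the imprinted RNA beside Igf2, was -1.87 (-2.61 to -1.14) in stem cells and -3.41 (-5.54 to -1.62) in oligodendrocyte precursors, the latter from 4 and 10 UMIs. Igf2bp1 and Igf2bp3, which bind Igf2 and other mRNAs, were -2.41 (-3.59 to -1.17) and -1.50 (-1.84 to -1.15) in inhibitory neurons, and Igf2bp1 was -3.83 (-6.32 to -1.87) in oligodendrocyte precursors. Dlk1, another imprinted gene, was -2.04 (-2.90 to -1.14) in inhibitory neurons. In stem cells Dlk1 had 18 UMIs at P2 and 0 at E18, 2.07-fold higher when the 0 is set to a floor of 3 UMIs. The lower bound of that log2 ratio was 0.60. Plagl1, an imprinted zinc finger gene named after its values were seen, had 51 and 0 UMIs in inhibitory neurons. With the same floor it was 2.06-fold higher, with a lower log2 bound of 0.69. Grb10, an imprinted adaptor that restrains IGF and insulin receptors, was -1.58 (-2.13 to -1.03) in stem cells and -1.27 (-1.81 to -0.72) in oligodendrocyte precursors, but 2.44 (1.30 to 3.90) in inhibitory neurons. Eif4ebp1, a translation repressor downstream of mTOR, was -1.36 (-2.21 to -0.51) in stem cells and -2.09 (-3.37 to -0.81) in oligodendrocyte precursors.

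Binding and processing genes had their highest levels in different classes, stem cells among them. Igfbp7 stood at 3985 (3380.1 to 4666) in the 5 mural cells and 8126 (5927 to 10873) in the 1 endothelial cell at E18, and at 2.62 (1.84 to 3.61) in excitatory neurons. Htra1, a secreted protease that can cleave binding proteins, stood at 277 (236 to 324) in E18 and 282 (257 to 309) in P2 stem cells. Adamts1, a secreted metalloprotease, was 92.8 (78.6 to 109) in P2 and 10.7 (3.91 to 23.2) in E18 stem cells, a log2 ratio of 3.12 (1.97 to 4.59), and in oligodendrocyte precursors it had 46 UMIs at P2 and 0 at E18. Stc1, one of the stanniocalcins, which inhibit the binding protein protease PAPP-A, was 39.4 (35.9 to 43.1) in P2 and 5.46 (2.36 to 10.8) in E18 inhibitory neurons, a ratio of 2.85 (1.86 to 4.07). Striatal neurons at P2 had a Stc1 level of 43.5 (37.3 to 50.5), which overlapped the P2 inhibitory level. Ctsd, a lysosomal protease, stood at 7557 (6968 to 8181) in E18 and 6975 (6808 to 7144) in P2 microglia.

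Genes with the most similar pattern were ranked by Pearson's r of log2 levels over the 15 classes of 20 or more cells in both libraries, among 7007 genes. For Igfbpl1 they were Srrm4 (0.95), a neuronal splicing factor, Elavl2 (0.93), a neuronal RNA-binding protein, and Igsf9 (0.91). Igfbp2 ranked with Pea15a (0.95) and Klf15 (0.93), and Igfbp5 with Fbln2 (0.92), Atf5 (0.92) and Eci2 (0.91). Igf1r ranked with Zfp638 (0.94), Rfx7 (0.94) and Zcchc11 (0.91). Igf1 had Pla2g15 (0.93), Lmo2 (0.89) and Arpc4 (0.89), and Igf2r had Sncaip (0.89), Pex3 (0.88) and Shisa4 (0.87). Igfbp3 had Sfxn1 (0.83), Prkar2a (0.81) and Smyd2 (0.80), and Igfbp4 had Prkar1a (0.73), Actr1b (0.68) and Ascc1 (0.67). With a pseudocount of 1 in place of 10, 1 of the 3 nearest genes was shared for Igf1 and for Igfbp3, all 3 for Igf1r, and 2 for each of the other members ranked. The points share libraries, depth and lineage, so these values are descriptions.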

How the data were processed

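The deposited matrices hold unnormalized UMI counts, with 1 row per entry of gene and barcode, which the authors made with Cell Ranger 4.0.0, per the file headers, against mm10, per the submitters' processing notes. The deposited lists of genes and barcodes carry identifiers and no measurement (unit other). For the kit chemistry, nothing is stated in these sources. Cells with 500 or more genes and under 10% mitochondrial UMIs were kept, and cells in the top 5% of Scrublet scores, ties included, were dropped (5.13% at E18 and 5.98% at P2), since the automatic threshold marked 7 and 4 cells. Clustering used scanpy 1.11.5 with 2000 variable genes, 30 components, 15 neighbours and Leiden resolution 1. A marker counted as on at 25% or more of its highest cluster and a level of 20 or more. A name needed 4 markers on, and went to the list with the highest share on; single cells with 4 markers of a rare class were moved to it. Counts were summed per class, and ratios taken between groups of 20 or more cells, with exact Poisson, conditional and Clopper-Pearson 95% intervals, a floor of 3 UMIs, and thinning to 3000 UMIs. With 1 library per age no test was run. On simulated counts the intervals and calls were checked. Pairs of clusters were the highest in Lhx6, Nr2f2, Mki67 and Neurod1, chosen after clusters were seen. Named genes were the 9 members, the 3 highest and 3 lowest pathway genes in each compared class by the interval bound nearest 0, the binding and processing list, and the 3 genes most like each member; some genes that this rule names are not reported here. Genes, lists and rules were chosen with earlier results of these data known. Alternatives changed the mitochondrial limit, doublets, resolution, clustering genes, scaling (TMM, edgeR 4.0.16), cell weighting, stem cell definition, EYFP threshold, thinning, UMI minimum and pseudocount.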

Additional observations from a re-analysis of the deposited data

Results flagged for a closer look

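2 genes lay past 2-fold in opposite directions in different cell classes between the libraries, and with 1 library per age the difference between classes was not tested. Igfbp5 had log2 ratios of P2 over E18 of 4.29 in inhibitory neurons, 4.77 in the Nr2f2 pair, 3.50 in the Lhx6 pair and 1.75 in the newborn excitatory pair, the last against 0 UMIs at E18, beside -2.50 in oligodendrocyte precursors, which was -0.86 with a mitochondrial limit of 5%. Igfbpl1 had 1.60 in the Lhx6 pair and 1.50 in oligodendrocyte precursors, beside -1.58 in stem cells, which turned positive under 2 alternatives.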

How the results depend on the processing

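No paired analysis was possible because each age has 1 library. Igfbpl1 in stem cells turned from -1.58 to 0.46 with a mitochondrial limit of 5% and to 0.41 with doublets kept; the cause was not tested. Members past 2-fold in stem cells, 1 in the report, were 2 with the 5% limit, 4 at resolution 2, 2 at resolution 2 with astrocytes pooled (an alternative chosen after seeing the data), 3 with members and pathway genes left in clustering, and 2 with EYFP stem cells alone. At resolution 2 the P2 stem class holds a cluster with more astrocyte than stem markers among its leading genes. In oligodendrocyte precursors 3 became 1 with the 5% limit, in the Nr2f2 pair 3 became 5 with doublets kept, and in the Lhx6 pair 7 became 3 at resolution 2. In the newborn excitatory pair 1 became 3 at resolution 0.5 and 0 with cells weighted alike. Pathway genes past 2-fold in oligodendrocyte precursors, 22, were 10 with 50 or more UMIs, where fewer genes are measured. Members differing with EYFP in oligodendrocyte precursors, 0, were 1 with 2 or more EYFP UMIs. The share of all genes past 2-fold under each alternative is not given. Whether these changes in count are particular to the members was therefore not tested. The 5% limit and doublets changed which cells and clusters enter, and TMM scaling kept all 7 counts within 1.5 times. At resolution 0.5 oligodendrocyte precursors and the cycling pair gave no value, and striatal EYFP cells were too few at 2 or more EYFP UMIs. Pooling astrocytes at resolution 1 was not run, since no cluster had that name. Depth limits Igf2, Igf2r and the E18 microglia, where a UMI or 2 decides a value, and 1 library per age leaves the spread between animals unknown.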
